A study of Xenopus tropicalis with 36 samples.

Results

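The *Hox* cluster genes were taken as every gene of the count table whose symbol is *hox*, a cluster letter from a to d and a paralog number. This rule found 38 genes among 25774, each with a symbol of its own. They were grouped as anterior (paralogs 1 to 4, 13 genes), middle (5 to 8, 11 genes) and posterior (9 to 13, 14 genes). The counts come from poly(A) RNA of *Xenopus tropicalis* embryos, a diploid frog, at tailbud stages 26 and 34. All frogs were outbred Nigerian animals, and each of the 36 libraries held RNA of 5 to 10 siblings of 1 clutch. In the knockdown (KD) experiment, wild-type embryos of frogs D, E and F were left uninjected or received 18 ng of morpholino at the 1-cell stage. A morpholino is a synthetic antisense oligomer. It was either the standard control (cMO) or a mix against *t* and *t2* (*t*/*t2* MO), which are the frog's Brachyury paralogs. In the knockout (KO) experiment, crosses 1, 2 and 9 of *t*e1.2D/+ *t2*e3.7D/+ frogs gave wild-type, doubly heterozygous (*t*/*t2* het) and doubly homozygous (*t*/*t2* KO) siblings. The alleles are TALEN-induced frameshift deletions, which are inherited together because both genes lie close to each other. Each of the 12 groups held 3 libraries, 1 per clutch.

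Hox genes encode homeodomain transcription factors that give cells along the trunk and tail their regional identity. Within a cluster they lie in paralog order, and low-numbered genes are generally switched on earlier and more anteriorly than high-numbered ones. New trunk and tail tissue is added from the tailbud, where Brachyury maintains mesoderm progenitors together with Wnt and Fgf signals. Cdx factors act upstream of Hox genes in that region, retinoic acid activates anterior Hox genes in the hindbrain, and paralog group 13 marks the end of the axis.

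The deposited gene models (assembly v7.1) placed cluster a on scaffold 6 from 103443382 to 103541322 and cluster b on scaffold 10 from 28882586 to 28984964, both on the plus strand. Cluster c was on scaffold 2 from 90095784 to 90375366 and cluster d on scaffold 9 from 20755816 to 20886493, both on the minus strand. The clusters held 11, 9, 10 and 8 of the genes, in the order a to d. Cluster b held paralogs 1 to 9, which made *hoxb9* its only posterior gene. For 5 genes the model overlapped another one (*hoxa3*, *hoxb2*, *hoxb3*, *hoxc3* and *hoxc8*). The other model lay on the same strand for *hoxa3*, and *hoxb2* and *hoxb3* overlapped each other on the same strand. It lay on the opposite strand for *hoxc3* and *hoxc8*, and the libraries were not stated to keep strand. The values of these 5 genes are less certain.

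Libraries held 30225504 to 52401214 gene counts, of which the 38 Hox genes took 0.0487% to 0.0979%. A normalized count below is a count scaled by TMM to the mean effective library of 37642373. The lowest raw count of any Hox gene in any library was 15, and all 38 genes passed the filter of a mean above 7, as did 17987 genes in all. A gene was called where edgeR's quasi-likelihood test gave a Benjamini-Hochberg adjusted p of at most 0.1 over all genes and the change was at least 1.5-fold. As a check of the labels at stage 26, *t2* averaged 1372 normalized counts in uninjected and 38.4 in *t*/*t2* MO embryos, and *t* 955 and 596. In wild-type and *t*/*t2* KO embryos *t* averaged 762 and 119, and *t2* 904 and 2.36. Heterozygous siblings averaged 1176 of *t*. At the earlier neurula stage, the paper found by qRT-PCR no nonsense-mediated decay of the mutant transcripts and a rise of *t* RNA. It also reported reduced *t2* expression on complete loss of Brachyury, which regulates *t2* directly.

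**Figure D1:**
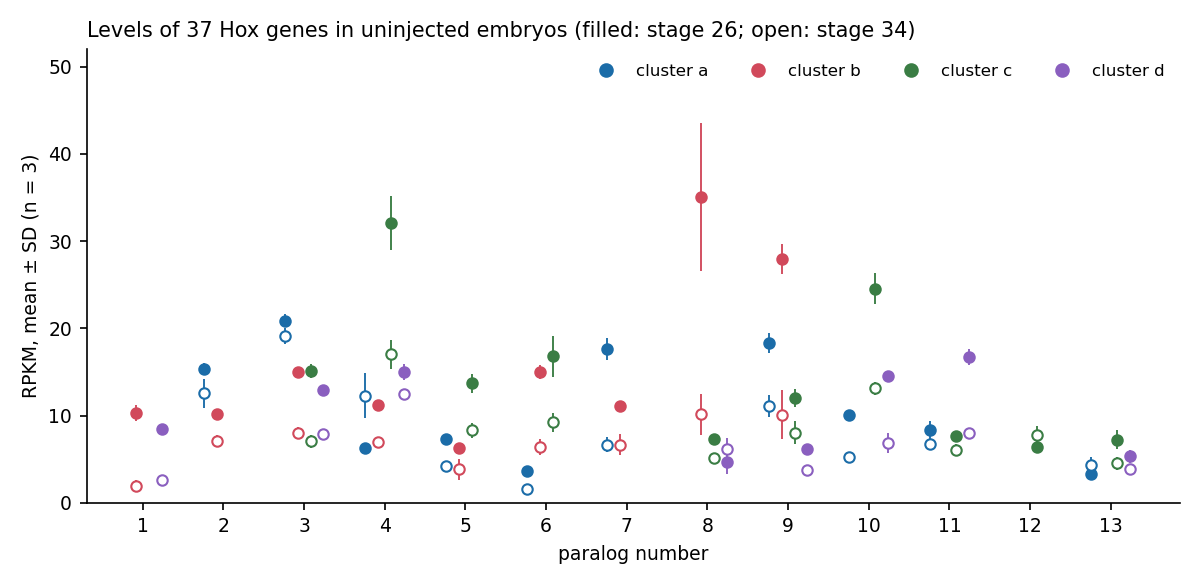
Length-scaled level (RPKM, y axis) of 37 Hox genes against paralog number (x axis) in uninjected embryos, as mean ± SD of 3 libraries, with clusters by colour. Filled points (stage 26) mostly lie above open points (stage 34), with *hoxb8* at 35.03 and *hoxa13* at 3.33 at stage 26.

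Levels were compared between genes per length of exon, with lengths from the v7.1 models, whereas the authors counted on revised v7.2 models. Values are RPKM, reads per kilobase of exon scaled to the size of the library. In uninjected embryos at stage 26 they ran from 3.33 ± 0.565 RPKM (SD, n = 3) for *hoxa13* to 35.03 ± 8.47 for *hoxb8*. Next after *hoxb8* came *hoxc4* at 32.1 ± 3.15, *hoxb9* at 28.0 ± 1.73 and *hoxc10* at 24.6 ± 1.82 RPKM. The SD of *hoxb8* alone spans the distance to *hoxb9*, so that the order of the top genes is not resolved. The median level was 14.8 RPKM over anterior, 11.1 over middle and 9.19 over posterior genes. In wild-type siblings at this stage the medians were 10.5, 8.30 and 8.70 RPKM. High and low levels were thus found in every class, and paralog group 13 lay near the bottom in both control groups.

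Most Hox genes were less abundant at stage 34 than at stage 26. In uninjected embryos 25 of the 38 genes fell and 1 rose, where 12% of all tested genes fell and 19.9% rose. In wild-type siblings 16 fell and 1 rose, against 5.47% and 12% of all genes. The median log2 change was -0.71 in uninjected and -0.53 in wild-type embryos, beside -0.00 and -0.01 over all genes. All 16 genes that fell in wild-type also fell in uninjected embryos, and *hoxa4* was the gene that rose in both.

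**Figure D2:**
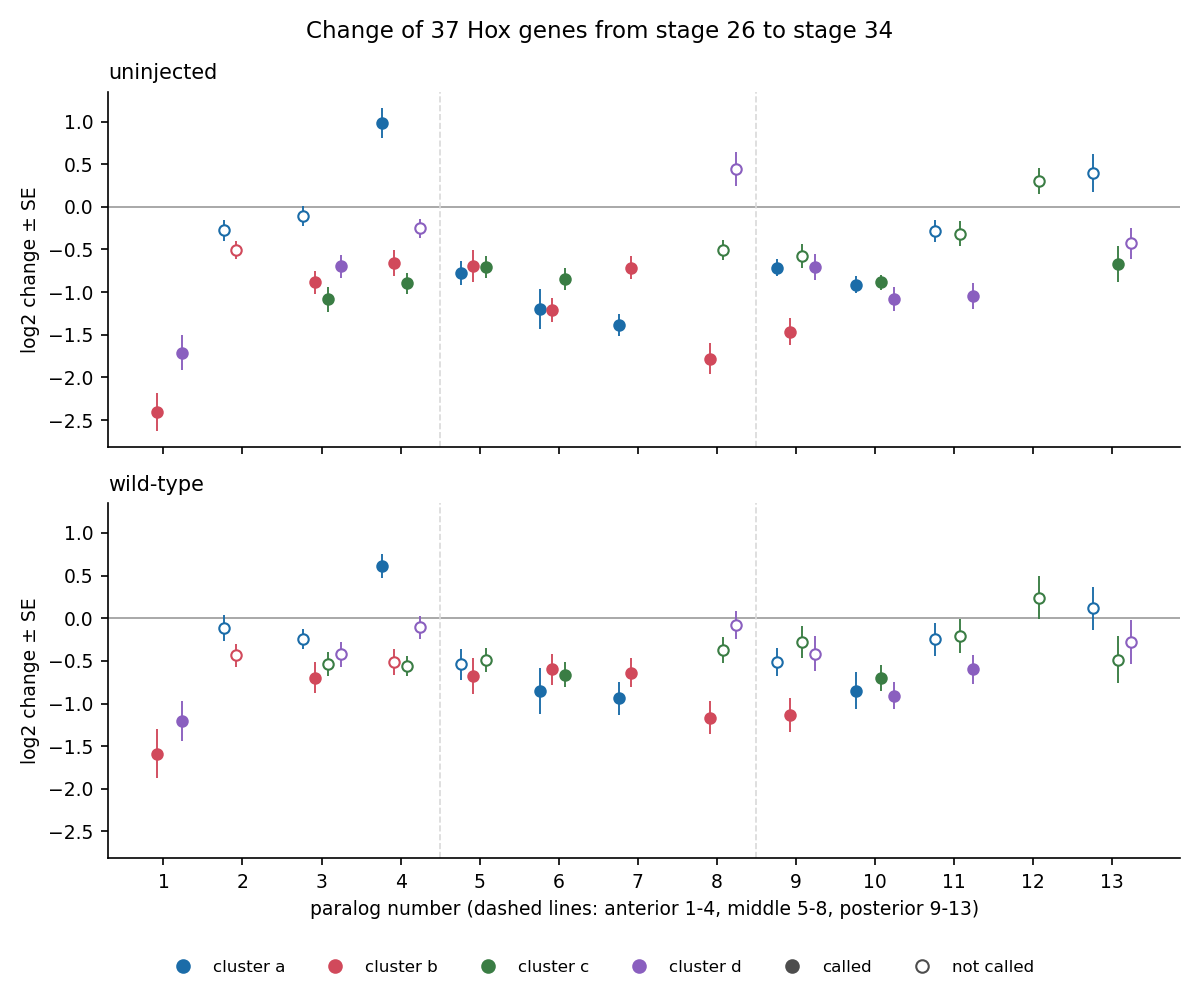
Log2 change ± SE from stage 26 to stage 34 (y axis) of 37 Hox genes by paralog number (x axis), in uninjected (top) and wild-type embryos (bottom). Filled points are called, and *hoxb1* is the lowest point in both panels (-2.40 and -1.59).

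The fall was seen in each class, with 8 of 13 anterior, 9 of 11 middle and 8 of 14 posterior genes called in uninjected embryos, and 4, 7 and 5 in wild-type embryos. It was largest for *hoxb1*, a hindbrain gene expressed in rhombomere 4. This gene had 455, 433 and 514 normalized counts in uninjected embryos of frogs D, E and F at stage 26 and 71.2, 68.2 and 127 at stage 34. In wild-type embryos of crosses 1, 2 and 9 it went from 275, 436 and 394 to 76.6, 99.7 and 190 normalized counts. The stages did not overlap in either experiment, and the log2 change was -2.40 ± 0.22 (SE, edgeR adjusted p = 5.98e-08) in uninjected and -1.59 ± 0.29 (adjusted p = 0.000585) in wild-type embryos. In uninjected embryos *hoxd1* fell as well, with a log2 change of -1.71.

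In contrast, *hoxa4* had 405, 367 and 378 normalized counts at stage 26 and 927, 644 and 666 at stage 34 in uninjected embryos. Its log2 change was 0.98 ± 0.18 (edgeR adjusted p = 0.00015) there and 0.61 ± 0.14 (adjusted p = 0.00505) in wild-type embryos, where the call was lost without cross 2. Paralog 13 did not move as a group: *hoxc13* fell in uninjected embryos (log2 change -0.67 ± 0.21, edgeR adjusted p = 0.0158), a call that was lost without frog E, whereas *hoxa13* was at 0.40 ± 0.23 (adjusted p = 0.189). Without cross 1, 10 Hox genes instead of 16 fell in wild-type embryos, and 668 instead of 984 among all genes.

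The control morpholino and heterozygosity served as controls of injection and of gene dose. The paper holds this cMO unsuitable for such comparisons, since it has off-target effects of its own and may be less immunogenic. An immune response and off-target mis-splicing in morphants are its main findings. Their part in the Hox results of morphants was not tested. No Hox gene was called in cMO against uninjected embryos, where 1.42% of all genes were called, nor in *t*/*t2* het against wild-type siblings, where 0.0222% were. DESeq2 called none in either comparison. At an unadjusted p below 0.05, 3 of 38 genes differed in cMO (15.5% of all genes) and 1 in *t*/*t2* het embryos (1.68%). The largest differences from the control were 0.35 (log2) for *hoxb1* in cMO and 0.35 for *hoxc13* in *t*/*t2* het embryos. All 10 genes of cluster c had values above 0 in *t*/*t2* het embryos, and none of them was called. Their median log2 change was 0.13, beside -0.005 over all genes. In the other clusters 4 of 11 genes of a, 1 of 9 of b and 3 of 8 of d were above 0. Genes of a cluster share the same libraries, and the share of all genes above 0 was not counted.

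Embryos without *t* and *t2* function had less *hoxa13* and *hoxc13* RNA, which is encoded at the posterior end of clusters a and c. In *t*/*t2* KO against wild-type embryos, 2 of the 38 Hox genes fell (*hoxc13* and *hoxa13*) and 1 rose (*hoxb9*), while 2.97% of all genes fell and 0.467% rose. In *t*/*t2* MO against uninjected embryos, 4 fell (*hoxc13*, *hoxa13*, *hoxb7* and *hoxd8*) and 1 rose (*hoxb1*), beside 8.58% and 6.64% of all genes. With cMO as the control, *hoxc13* and *hoxa13* fell and *hoxd3*, a paralog 3 gene, rose (7.53% and 6.10% of all genes fell and rose). The call of *hoxd3* (log2 change 0.60 ± 0.11, edgeR adjusted p = 0.000366) was lost without frog E (0.49) or F (0.57). The *t*/*t2* MO libraries are the same in both KD comparisons.

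**Figure D3:**
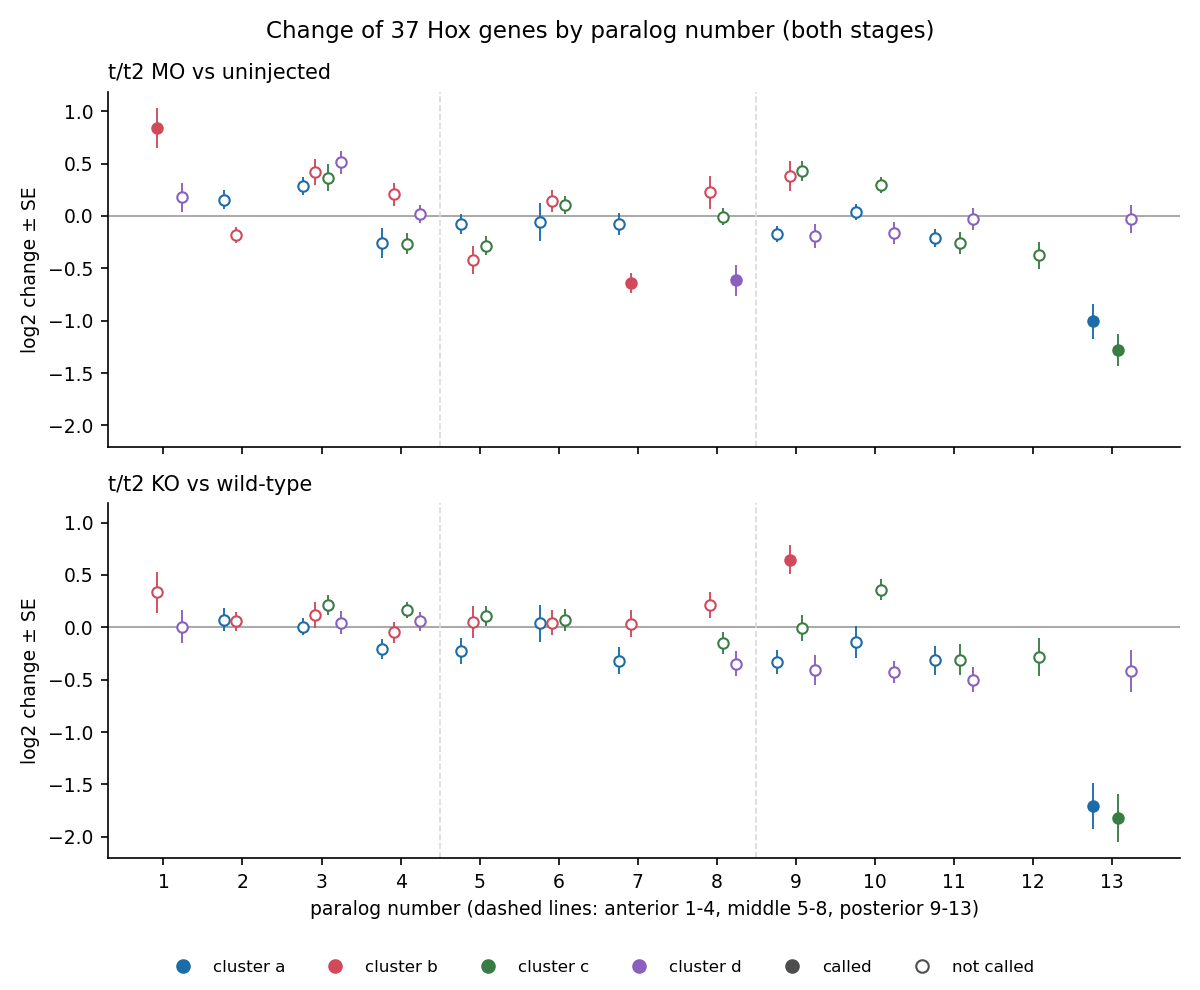
Log2 change ± SE (y axis) of 37 Hox genes by paralog number (x axis) in *t*/*t2* MO against uninjected (top) and *t*/*t2* KO against wild-type embryos (bottom), over both stages. Filled points are called, and *hoxa13* and *hoxc13* lie lowest in both panels.

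In KO embryos the posterior genes as a class lay below the others. Of 14 posterior genes, 12 had a log2 change below 0, as against 3 of 13 anterior and 4 of 11 middle genes and 49.0% of all genes. At an unadjusted p below 0.05, 9 posterior, 2 middle and 1 anterior gene were lower (9.05% of all genes), and 2 posterior and 2 anterior genes were higher (7.07%). The median log2 change was -0.32 over posterior, 0.04 over middle and 0.06 over anterior genes, beside 0.00 over all genes. Across the 38 genes, which share the same libraries, Spearman's rho between paralog number and log2 change was -0.59. It was -0.48 over the 35 genes outside paralog group 13, and for these -0.58 at stage 26 and -0.26 at stage 34. By cluster, rho was -0.72 in a, 0.07 in b, -0.72 in c and -0.83 in d. Most of these differences were small, since the posterior genes that were not called ranged from -0.50 (*hoxd11*) to 0.36 (*hoxc10*). These 2 genes and *hoxd10* passed the adjusted p but not 1.5-fold, with edgeR adjusted p-values of 0.0106 for *hoxd11* (-0.50 ± 0.12), 0.0233 for *hoxd10* (-0.43 ± 0.11) and 0.0425 for *hoxc10* (0.36 ± 0.10). Each differed in the same direction in 6 of 6 clutch-by-stage pairs. For *hoxd11* the pair of cross 2 at stage 34 was nearly equal, with 443.6 normalized counts in wild-type and 443.4 in *t*/*t2* KO embryos. All 4 posterior genes of cluster d had similar values, from -0.50 for *hoxd11* to -0.41 for *hoxd9*. With cross 1, 2 or 9 left out, 11 or 12 posterior genes were below 0. The number of genes below 0 in the other classes depended on cross 1, since without it 6 anterior and 8 middle genes were below 0 as well. The medians were then 0.02 over anterior, -0.03 over middle and -0.30 over posterior genes. Without cross 9, 6 posterior genes instead of 11 had an unadjusted p below 0.05 in either direction.

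In morphants the same classes had medians of -0.17 (posterior), -0.08 (middle) and 0.21 (anterior), beside -0.03 over all genes. Here 10 posterior, 8 middle and 3 anterior genes were below 0 (53.9% of all genes). At an unadjusted p below 0.05, 6 posterior, 4 middle and 2 anterior genes were lower (26.1% of all genes), while 5 anterior and 3 posterior genes were higher (19.6%). An adjusted p of at most 0.1 was reached by 19 Hox genes, of which 14 changed by less than 1.5-fold and were not called (41.6% of all genes reached it at any fold, and 5.60% in *t*/*t2* KO embryos, where 6 Hox genes did). All 4 genes of paralog group 3 were above 0, from 0.29 for *hoxa3* to 0.51 for *hoxd3*, without reaching 1.5-fold. In *t*/*t2* KO embryos they ranged from 0.01 to 0.22.

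*hoxc13* belongs to the paralog group that is expressed last and most caudally. At stage 26 it had 409, 357 and 428 normalized counts in wild-type and 78.0, 67.1 and 79.1 in *t*/*t2* KO embryos of crosses 1, 2 and 9. At stage 34 the counts were 219, 239 and 396 in wild-type and 73.7, 177 and 106 in *t*/*t2* KO embryos. The groups did not overlap at either stage, and the level in *t*/*t2* KO embryos was 28.3% of wild-type over both stages (log2 change -1.82 ± 0.23, edgeR adjusted p = 3.63e-06, lower in 6 of 6 clutch-by-stage pairs). Heterozygous siblings had 355, 385 and 636 counts at stage 26 and 314, 422 and 497 at stage 34, which overlapped wild-type.

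In the KD experiment, *hoxc13* had 650, 670 and 506 normalized counts in uninjected, 645, 474 and 340 in cMO and 232, 256 and 237 in *t*/*t2* MO embryos of frogs D, E and F at stage 26. At stage 34 it had 396, 313 and 427 in uninjected, 415, 292 and 413 in cMO and 218, 148 and 125 in *t*/*t2* MO embryos. Every *t*/*t2* MO library was below every control library of its stage. The level in *t*/*t2* MO embryos was 41.1% of uninjected (log2 change -1.28 ± 0.15, edgeR adjusted p = 1.62e-06, lower in 6 of 6 pairs).

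*hoxa13*, its paralog from cluster a, had 106, 118 and 79.1 normalized counts in wild-type and 19.3, 23.3 and 16.0 in *t*/*t2* KO embryos at stage 26. At stage 34 the counts were 96.5, 115 and 119 in wild-type and 45.0, 60.8 and 42.4 in *t*/*t2* KO embryos. Again the groups were apart at both stages, with 30.7% of the wild-type level over both (log2 change -1.71 ± 0.22, edgeR adjusted p = 4.59e-06). Uninjected embryos had 132, 108 and 94.2 counts at stage 26 and 130, 127 and 180 at stage 34. In *t*/*t2* MO embryos the counts were 66.8, 60.4 and 60.7, then 78.3, 45.8 and 71.1, which gave 49.8% of uninjected (log2 change -1.01 ± 0.17, edgeR adjusted p = 0.000103, lower in 6 of 6 pairs). The fall was called at each stage and in each experiment for both genes. At stage 34 of the KO experiment, however, both calls were lost without cross 9, and that of *hoxa13* also without cross 1. The stage 26 call of *hoxa13* in morphants was lost without frog E.

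The paralog of cluster d was not called. *hoxd13* had 174, 146 and 111 normalized counts in wild-type and 138, 145 and 121 in *t*/*t2* KO embryos at stage 26, and 93.3, 115 and 150 against 54.6, 99.1 and 57.9 at stage 34. The groups overlapped at both stages, and the log2 change was -0.42 ± 0.20 (edgeR adjusted p = 0.376). At stage 34 *hoxd13* was lower in *t*/*t2* KO embryos of 3 of 3 crosses (-0.78 ± 0.27, adjusted p = 0.209), and at stage 26 the change was -0.11 ± 0.26. In *t*/*t2* MO embryos it was -0.03 ± 0.13 over both stages (adjusted p = 0.91). The difference between *hoxd13* and its paralogs was not tested.

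*hoxb9*, a posterior gene that marks trunk and spinal cord in frog embryos, was higher without Brachyury. Wild-type embryos had 598, 625 and 489 normalized counts at stage 26 and *t*/*t2* KO embryos 772, 725 and 870. At stage 34 the counts were 198, 237 and 346 in wild-type and 476, 390 and 557 in *t*/*t2* KO embryos. There was no overlap at either stage, and the level was 156.3% of wild-type (log2 change 0.64 ± 0.14, edgeR adjusted p = 0.00459, higher in 6 of 6 pairs). Within a stage it was called at stage 34 alone (0.84 ± 0.20, adjusted p = 0.0198), and that call was lost without cross 1. In the KD experiment the groups overlapped at stage 26, with 756, 709 and 669 counts in uninjected and 755, 697 and 647 in *t*/*t2* MO embryos. They were apart at stage 34, with 202, 232 and 336 against 391, 472 and 475 counts. Over both stages the log2 change in morphants was 0.38 ± 0.15 (edgeR adjusted p = 0.0565) and below 1.5-fold.

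**Figure D4:**
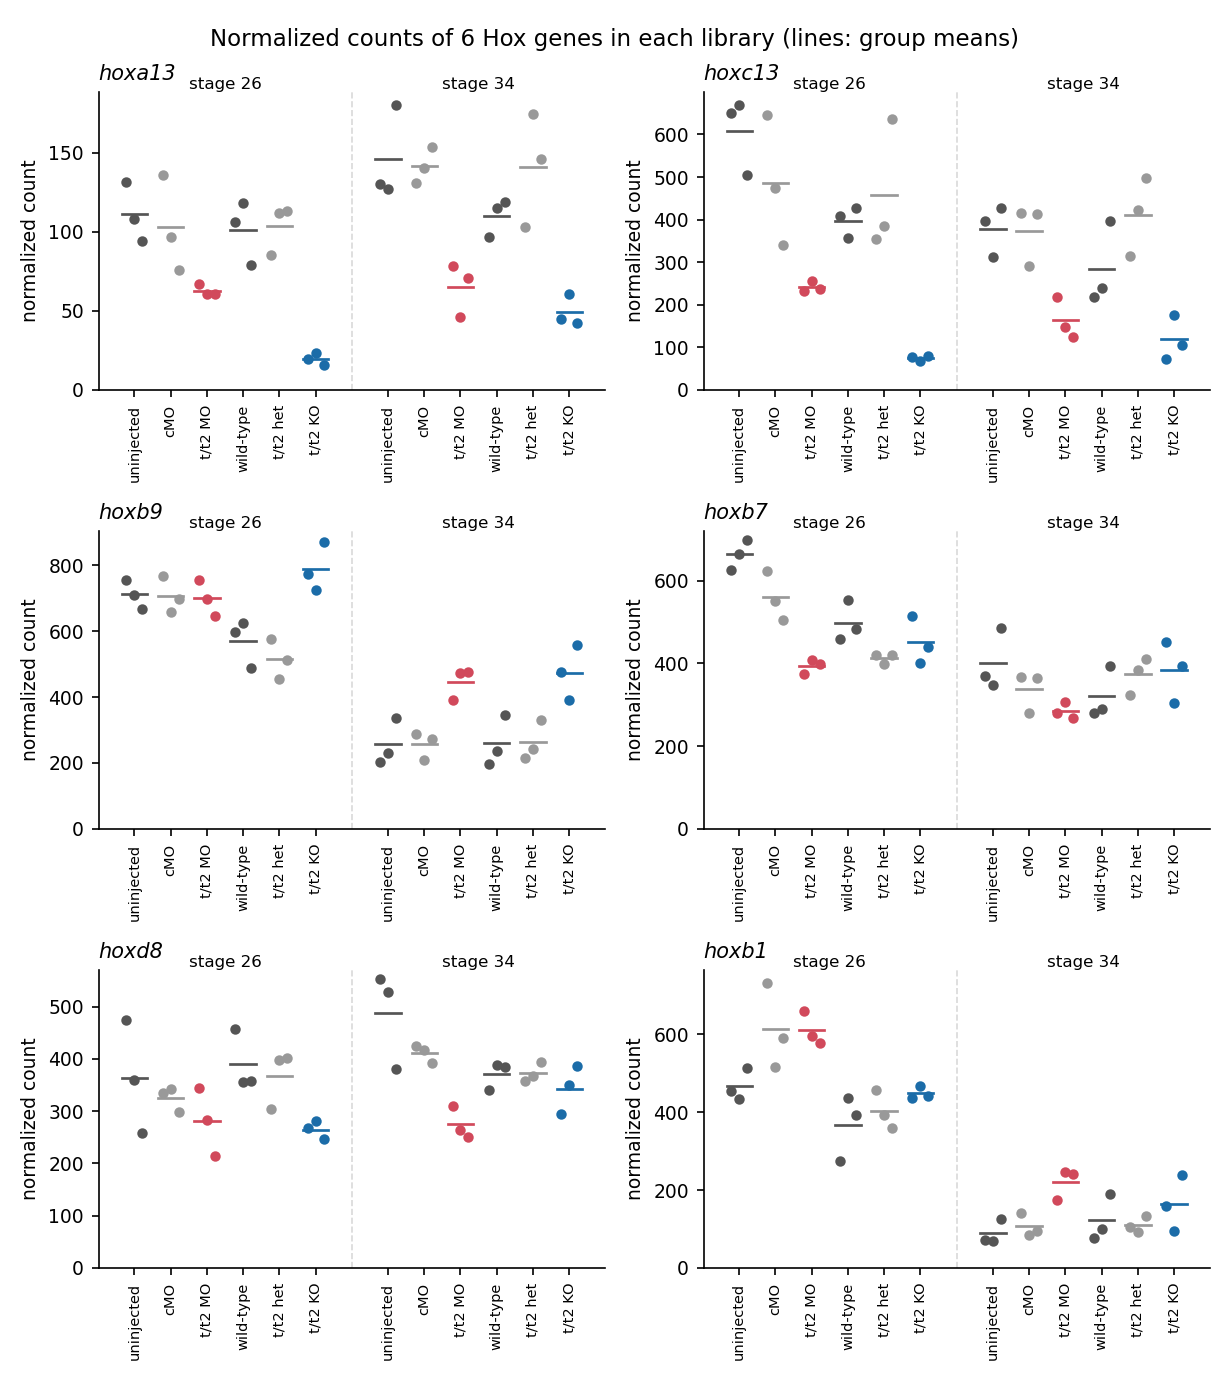
Normalized count (y axis, from 0) of 6 Hox genes in each library (points) with the group mean (lines), for the 6 conditions (x axis) at stages 26 and 34. For *hoxa13* and *hoxc13*, *t*/*t2* MO and *t*/*t2* KO libraries lie below every control library of their own experiment and stage, and those of *hoxb7* do so in *t*/*t2* MO embryos at stage 26.

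*hoxb7*, a middle gene of the trunk, fell in morphants and was not called in *t*/*t2* KO embryos. It had 627, 665 and 698 normalized counts in uninjected and 374, 408 and 399 in *t*/*t2* MO embryos at stage 26, and 370, 349 and 486 against 280, 306 and 267 at stage 34. The groups were apart at both stages (log2 change -0.64 ± 0.10, edgeR adjusted p = 3.02e-05). cMO embryos had 624, 551 and 505 counts at stage 26, between the other groups, and 366, 281 and 366 at stage 34, which overlapped both. Against cMO the log2 change of *hoxb7* was -0.40 ± 0.10 and below 1.5-fold. Wild-type and *t*/*t2* KO embryos overlapped, with 458, 554 and 484 against 515, 401 and 440 counts at stage 26 and 279, 289 and 394 against 452, 305 and 393 at stage 34 (log2 change 0.03 ± 0.13, 95% interval -0.21 to 0.28). Without frog F, the change in morphants was -0.51 and no longer called.

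*hoxd8* is a middle gene of cluster d, which the paper used as its pronephros marker for in situ hybridization. It reports that the pronephros began to form, with some delay, in both KO and morphant embryos. *hoxd8* had 475, 359 and 258 normalized counts in uninjected and 344, 282 and 214 in *t*/*t2* MO embryos at stage 26, which overlapped. At stage 34 it had 553, 528 and 381 counts against 310, 263 and 251, without overlap (both stages: log2 change -0.62 ± 0.15, edgeR adjusted p = 0.00344). cMO embryos had 335, 341 and 298 counts at stage 26 and 424, 417 and 392 at stage 34. They overlapped both other groups at stage 26 and at stage 34 lay above *t*/*t2* MO and within the range of uninjected embryos. Against cMO the change was -0.41 ± 0.15 (adjusted p = 0.0487) and below 1.5-fold. The call was lost without frog E (-0.56). In the KO experiment it had 458, 356 and 358 counts in wild-type and 268, 281 and 246 in *t*/*t2* KO embryos at stage 26, followed by 340, 389 and 385 against 294, 349 and 386 at stage 34. The genotypes were apart at stage 26 and overlapped at stage 34. The log2 change over both stages was -0.35 ± 0.12 (adjusted p = 0.145).

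*hoxb1* had more counts in morphants at both stages. At stage 26 *t*/*t2* MO embryos had 660, 596 and 577 normalized counts and uninjected embryos the 455, 433 and 514 given above. At stage 34 they had 174, 247 and 242, against 71.2, 68.2 and 127. The groups did not overlap at either stage (log2 change 0.84 ± 0.19, edgeR adjusted p = 0.00226, higher in 6 of 6 pairs). cMO embryos had 733, 517 and 592 counts at stage 26, which reach above those of *t*/*t2* MO embryos, and 141, 84.4 and 94.7 at stage 34. Against cMO the log2 change was 0.49 ± 0.19 (adjusted p = 0.0691), below 1.5-fold. In *t*/*t2* KO embryos *hoxb1* had 436, 469 and 441 counts at stage 26 and 159, 96.1 and 240 at stage 34. These overlapped wild-type at both stages (0.34 ± 0.20, edgeR adjusted p = 0.53). At stage 26 the overlap was narrow, with a *t*/*t2* KO minimum of 435.7 and a wild-type maximum of 436.3. Within crosses, *t*/*t2* KO embryos had more than wild-type siblings, except in cross 2 at stage 34 (96.1 against 99.7).

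The effect of the *t*/*t2* MO was also examined within each stage. At stage 26, 3 Hox genes fell (*hoxc13*, *hoxa13* and *hoxb7*; 6.88% of all genes) and none rose (4.28% of all genes). DESeq2 called none raised either, and 1 gene was higher at an unadjusted p below 0.05 (13.6% of all genes). At stage 34, 3 fell (*hoxc13*, *hoxa13* and *hoxd8*; 10.6% of all genes) and 6 rose (9.11%), namely *hoxb1*, *hoxd3*, *hoxb9*, *hoxb3*, *hoxb8* and *hoxc3*. Their log2 changes ran from 0.64 for *hoxc3* to 1.31 for *hoxb1*, and those of *hoxc3* and *hoxb8* were no longer called without frog E. In *t*/*t2* KO embryos *hoxc13* and *hoxa13* fell at stage 26 (2.39% of all genes) and at stage 34 (2.37%). None rose at stage 26 (0.117% of all genes), where DESeq2 also called none and 3 were higher at an unadjusted p below 0.05 (2.54%). *hoxb9* rose at stage 34 (0.612%).

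**Figure D5:**
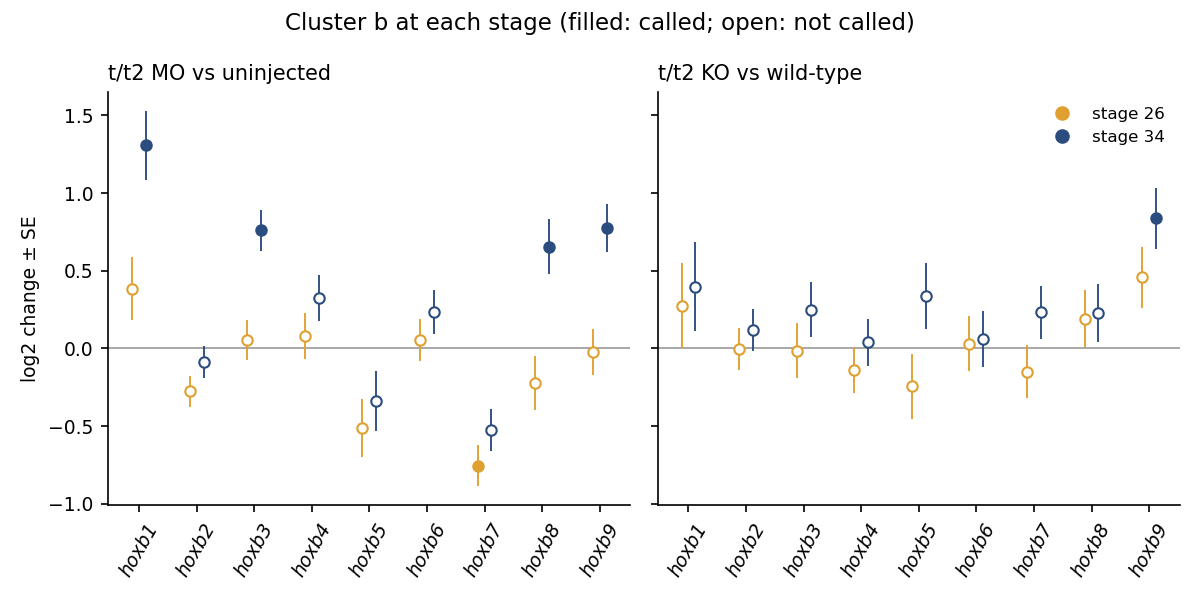
Log2 change ± SE (y axis) of the 9 cluster b genes (x axis) at stages 26 and 34, in *t*/*t2* MO against uninjected (left) and *t*/*t2* KO against wild-type embryos (right). Filled points are called, and every gene lies higher at stage 34 than at stage 26 in both panels. Among all 38 Hox genes, 28 (*t*/*t2* MO) and 31 (*t*/*t2* KO) were higher at stage 34.

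A test of the interaction of stage and condition called 4 Hox genes in morphants (5.59% of all genes were called). All 4 were of cluster b, with a higher log2 change against uninjected embryos at stage 34. They were *hoxb1*, *hoxb3*, which patterns hindbrain and neck, *hoxb8* of the trunk, and *hoxb9*. The difference between the stages was 0.92 ± 0.30 for *hoxb1* (edgeR adjusted p = 0.093), 0.71 ± 0.18 for *hoxb3* (adjusted p = 0.0365), 0.88 ± 0.25 for *hoxb8* (adjusted p = 0.0538) and 0.80 ± 0.22 for *hoxb9* (adjusted p = 0.0433), on the log2 scale. *hoxb3* had 1723, 1664 and 1688 normalized counts in uninjected and 1809, 1845 and 1620 in *t*/*t2* MO embryos at stage 26, then 904, 832 and 980 against 1275, 1857 and 1563. *hoxb8* had 1619, 1761 and 2502 against 1710, 1768 and 1580 at stage 26, then 510, 472 and 720 against 720, 1070 and 934. In both genes the groups overlapped at stage 26, and at stage 34 they were apart, by a margin of less than 1 count for *hoxb8*. All 4 calls were lost without frog E, and those of *hoxb1*, *hoxb3* and *hoxb8* also without frog F. Over all genes, the 1006 calls of this test became 235 without frog E, 319 without frog F and 1224 without frog D.

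Like most Hox genes, these 4 fell between the stages in uninjected embryos. There *hoxb1*, *hoxb8* and *hoxb9* had the largest falls of cluster b (-2.40, -1.78 and -1.46). The same uninjected libraries enter the interaction, so that a larger fall in them raises it by construction. All 9 genes of cluster b had a higher value at stage 34 than at stage 26, in morphants by 0.18 to 0.92 and in *t*/*t2* KO embryos by 0.03 to 0.58 on the log2 scale. Among all 38 Hox genes, 28 in morphants and 31 in *t*/*t2* KO embryos were higher at stage 34. The median differences were 0.17 and 0.116, beside -0.002 and 0.008 over all genes. In morphants 8 of 11 genes of cluster a, 7 of 10 of c and 4 of 8 of d were higher. In *t*/*t2* KO embryos 8, 8 and 6 of them were. Hox genes share the same libraries, and the share of all genes above 0 was not counted. In *t*/*t2* KO embryos no Hox gene had a stage-dependent effect by edgeR or DESeq2 (0.0278% of all genes were called), and 2 reached an unadjusted p below 0.05 (3.80% of all genes). These were *hoxa13*, with log2 changes of -2.37 at stage 26 and -1.17 at stage 34, and *hoxc13*, with -2.42 and -1.28.

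Whether the morpholino and the mutation had effects of a different size was tested by fitting all 36 libraries at once, where each effect is taken against the controls of its own experiment. The effect differed for 2 of 38 Hox genes (8.85% of all genes). For *hoxa13* the change in morphants was weaker by 0.77 ± 0.25 on the log2 scale (edgeR adjusted p = 0.0472), and for *hoxb7* the difference was -0.68 ± 0.16 (adjusted p = 0.00373). The first call was lost when any single clutch other than cross 2 was left out, and the second without frog F or cross 1. For *hoxc13* the difference was 0.57 ± 0.27 (adjusted p = 0.212), and for *hoxb9* it was -0.27 ± 0.19 (adjusted p = 0.449). The experiments also differ in clutches and in fertilization, *in vitro* or by natural mating.

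Other genes that act with or on Hox genes were followed as lists. Of 19 known regulators past the filter, *cdx1* fell and *wnt8a* rose in morphants (8.58% and 6.64% of all genes), and *cdx1* alone fell in *t*/*t2* KO embryos (2.97%). The median log2 change of the list was 0.08 in morphants and 0.11 in *t*/*t2* KO embryos. *cdx1*, a caudal-type activator of Hox genes, averaged 477 ± 93.4 normalized counts (SD, n = 3) in uninjected and 247 ± 51.0 in *t*/*t2* MO embryos at stage 26, and 329 ± 72.9 in wild-type and 194 ± 100.4 in *t*/*t2* KO embryos. Its log2 change was -0.78 ± 0.18 (edgeR adjusted p = 0.00194) in morphants and -0.85 ± 0.22 (adjusted p = 0.026) in *t*/*t2* KO embryos. *wnt8a*, a posteriorizing ligand, differed in morphants by 0.97 ± 0.40 (adjusted p = 0.0826), with most of the difference at stage 34, where it averaged 9.01 counts in uninjected and 59.97 in *t*/*t2* MO embryos. At stage 34, where 6 Hox genes rose in morphants, 6 of the 19 regulators rose as well (9.11% of all genes), from 0.59 ± 0.16 for the ligand *fgf8* to 2.71 ± 0.42 for *wnt8a*, and the effect of 3 regulators depended on the stage (5.59%). One of the 6 was *cdx4*, another caudal-type factor, which rose in morphants by 1.10 ± 0.17 (edgeR adjusted p = 7.7e-05) and fell in *t*/*t2* KO embryos at that stage (log2 change -0.78 ± 0.21, adjusted p = 0.0639). Among the 8 measured TALE cofactors (Pbx, Meis and Pknox), which bind DNA with Hox proteins, none was called in either comparison by edgeR, and 5 in morphants and 1 in *t*/*t2* KO embryos had an unadjusted p below 0.05, where 26.1% and 19.6% of all genes were lower and higher in morphants and 9.05% and 7.07% in *t*/*t2* KO embryos. Their log2 changes ran from -0.22 to 0.38 in morphants and from -0.12 to 0.26 in *t*/*t2* KO embryos. Of 4 measured ParaHox and other trunk homeobox genes, *gsx2*, a factor of the ventral forebrain and dorsal neural tube, fell in morphants (-0.63 ± 0.16, adjusted p = 0.0051) and none was called in *t*/*t2* KO embryos.

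The pools were whole embryos, so that fewer cells of a type and less RNA per cell cannot be told apart. Most markers of paraxial mesoderm, tailbud and somite muscle, tissues that Brachyury maintains, moved with *hoxa13* and *hoxc13*. The marker lists were chosen with earlier results of these data known. Among all genes, 2.97% fell in *t*/*t2* KO and 8.58% in *t*/*t2* MO embryos. All 5 measured markers of paraxial mesoderm and tailbud fell in both comparisons. Their median fall was 3.92 on the log2 scale in *t*/*t2* KO and 2.21 in *t*/*t2* MO embryos. Their summed level at stage 26 ranged from 2408 to 3461 normalized counts in wild-type, 343 to 437 in *t*/*t2* KO, 4667 to 5586 in uninjected and 824 to 902 in *t*/*t2* MO embryos. At stage 34 these ranges were 1152 to 1765, 392 to 484, 1256 to 1673 and 452 to 535. *msgn1* was at 0 in 3 libraries and *mesp2* in 4. Of 6 somite muscle markers 5 fell in each comparison. In *t*/*t2* KO embryos the other marker was above 0 (log2 change 0.84, unadjusted edgeR p below 0.05). In morphants all 6 were below 0. Sums at stage 26 were 276870 to 313904 in wild-type and 133169 to 144555 in *t*/*t2* KO embryos. They were 251399 to 322820 in uninjected and 128500 to 185009 in *t*/*t2* MO embryos. Notochord is another such tissue, and 1 of its 6 markers fell in morphants and 2 in *t*/*t2* KO embryos, with median log2 changes of -0.11 and -0.33. The notochord sums at stage 26 were 8358 to 9833.5 in wild-type and 3791.5 to 4019 in *t*/*t2* KO embryos. They were 11230 to 11800.5 in uninjected and 3810 to 4360 in *t*/*t2* MO embryos. These sums weigh abundant markers most, and *cav1* reached the highest count of the 6 (7488). None of the 7 spinal cord and neural tube markers was called over both stages by edgeR, and 3 had an unadjusted p below 0.05 in each comparison, beside the shares of all genes given above. Their median log2 change was 0.26 in *t*/*t2* KO and 0.24 in *t*/*t2* MO embryos. At stage 34, where *hoxb9* rose in both, 1 of the 7 rose in morphants and 1 in *t*/*t2* KO embryos (9.11% and 0.612% of all genes), with medians of 0.42 and 0.39. Their summed level was then 15310 to 17407 in wild-type and 20104 to 20607 in *t*/*t2* KO embryos, and 15078 to 16905 in uninjected and 14758 to 18041 in *t*/*t2* MO embryos. Of the 4 hindbrain and neural crest markers, which share *egr2* and *mafb* with the regulators, *egr2* rose in morphants at stage 34 (0.99 ± 0.21, edgeR adjusted p = 0.00109). Their summed level at that stage was 6960 to 7406 in uninjected and 6965 to 7528 in cMO embryos. In *t*/*t2* MO embryos, where *hoxb1*, *hoxb3*, *hoxc3* and *hoxd3* were higher, it was 8155 to 8856, above both. In the KO experiment the sums at stage 34 overlapped, with 6788 to 7307 in wild-type and 7053 to 9180 in *t*/*t2* KO embryos. At stage 26 they were apart, with 9324 to 10151 against 10652.5 to 11763. None of these Hox genes was called in *t*/*t2* KO embryos. Of 6 pronephros markers, 1 fell in morphants and 0 in *t*/*t2* KO embryos (8.58% and 2.97% of all genes), with median log2 changes of -0.094 and -0.007. The part of these tissues in the Hox results was not tested.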

How the data were processed

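Per the labels and the study's methods, poly(A) libraries were sequenced as paired reads, aligned by the authors with Bowtie2 2.1.0 to revised v7.2 gene models, and read pairs unique to 1 gene were counted. The deposited values are raw fragment counts, with no normalization. Entries for unaligned, ribosomal and mitochondrial reads (27.4% to 34.3% of each column) were left out. Gene positions and exon lengths came from the deposited v7.1 models. Their coordinates were used as deposited.

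Counts were scaled by TMM in edgeR 4.0.16 (R 4.3.3). Each experiment of 18 libraries was fitted with stage and condition, without a clutch term. Within-stage, interaction and stage contrasts came from a model of stage-by-condition groups, and morpholino against mutation effects from a joint model. Tests were two-sided quasi-likelihood tests, with Benjamini-Hochberg adjustment over 25209 (KD), 24952 (KO) or 25774 (joint) genes with a count. A call needed an adjusted p of at most 0.1, a 1.5-fold change and a mean above 7 normalized counts over all libraries other than *t*/*t2* MO and KO. Intervals are at 95%. The share of all genes given beside a Hox count is over the genes past this filter.

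The labels name the frog or cross of each library, so that equal names pair samples of 1 clutch. Deviations from group means correlated within clutches with a mean r of 0.32 in each experiment. The mean r between clutches, -0.16, largely follows from centring each group of 3 libraries on its own mean. Alternatives were DESeq2 1.42.0, its size factors in edgeR, filtering before the fit, no count filter, the clutch as a block, the compared conditions alone, an FDR of 1% and leaving out each clutch. The comparisons of conditions over both stages were tried on simulated data, drawn without a clutch effect. The within-stage, interaction, stage and joint contrasts were not simulated.

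Values are given per library for Hox genes called in *t*/*t2* MO against uninjected, *t*/*t2* KO against wild-type or the joint test. *hoxd13*, *hoxa4*, *hoxb3* and *hoxb8* were added after their values were seen, as was naming the genes of other calls. The members, classes and gene lists were chosen with earlier results of these data known. Plots used matplotlib 3.10.9 (Python 3.11.15). Values of 1 gene are not reported here or plotted, and it is included in the counts.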

Additional observations from a re-analysis of the deposited data

Results flagged for a closer look

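Differences between the stages, or between the experiments, that passed the test of the difference itself were found for 6 Hox genes. Such calls were also common over all genes, with 5.59% called between the stages in morphants and 8.85% between the experiments. In morphants, the log2 change against uninjected embryos was higher at stage 34 than at stage 26 by 0.80 for *hoxb9*, 0.88 for *hoxb8*, 0.71 for *hoxb3* and 0.92 for *hoxb1*. The change in morphants minus the change in *t*/*t2* KO embryos was 0.77 for *hoxa13*, which fell in both, and -0.68 for *hoxb7*, which fell in morphants. Each of these 6 calls was lost when at least 1 clutch was left out.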

How the results depend on the processing

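Counts of called Hox genes kept within 1.5 times of the main count with DESeq2, its size factors, the other count filters, the compared conditions alone and the clutch as a replicate block. With the block, 1 Hox gene rose and 2 fell in *t*/*t2* KO, and 1 rose and 4 fell in *t*/*t2* MO embryos over both stages, as without it, and none of the calls of named genes was lost. At an FDR of 1%, no gene rose (0) and none fell (0) in *t*/*t2* KO embryos at stage 34, 0 had a stage-dependent effect in morphants, 9 fell between the stages in wild-type embryos, and 1 (*hoxb7*) differed between the morpholino and the mutation. When each clutch was left out in turn, 1 to 2 genes rose in *t*/*t2* MO against uninjected and 0 to 3 against cMO embryos. In *t*/*t2* KO embryos at stage 34, 0 to 1 rose and 0 to 3 fell. Stage-dependent effects in morphants numbered 0 to 6, and effects that differed between the morpholino and the mutation 0 to 4. Between the stages, 1 to 2 genes rose in uninjected embryos, and 0 to 1 rose and 10 to 21 fell in wild-type embryos. Counts over all genes moved as well. Between the stages, 984 fell in wild-type embryos in the main fit, 668 to 1473 with a cross left out and 487 at an FDR of 1%. Stage-dependent effects in morphants numbered 1006, 235 to 1224 and 177 in these settings. Effects that differed between the morpholino and the mutation numbered 1591, 1077 to 1595 and 833. The sign of *hoxb7* in *t*/*t2* KO embryos, which was not called, turned to -0.15 without cross 1, and its log2 change there ran from -0.154 to 0.158 over the crosses left out. The call of *hoxd8* in morphants was lost with filtering before the fit (-0.58), and that of *hoxb1* by stage with the compared conditions alone (adjusted p = 0.102). The cause of these differences was not tested. Each fit without a clutch had 2 clutches per group in the experiment concerned. Size factors moved the median of all genes by less than 0.1 (log2). With 3 clutches per group, a Hox gene that missed the threshold is not shown to be unaffected.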
